A study of Mus musculus with 20 samples.

Results

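Glycolysis in the aortic wall was followed through 10 genes, which carry glucose from its uptake to lactate: Slc2a1, Hk1, Hk2, Pfkp, Pfkfb3, Aldoa, Pgk1, Pgam1, Pkm and Ldha. The rule that chose them names the genes and uses no measured value, but the members were chosen with earlier results of these data known. All 10 were found among the 43422 Ensembl genes listed for each mouse. RNA of the abdominal aorta was sequenced in 20 mice, labelled as C57BL/6 and 6 months old, while the methods give C57Bl/6NCrl males that were younger when the pumps were implanted, in 4 groups of 5: WT mice given saline or Ang II, and Plod1-/- mice given saline or Ang II. Ang II is angiotensin II, a peptide that raises blood pressure and injures the aorta. It was given at 1000 ng/kg per minute, or saline in its place, by subcutaneous osmotic pump, and the aortas were taken on day 14. Plod1-/- mice lack lysyl hydroxylase 1 (LH1), an enzyme that modifies collagen, in the whole body and were bred with their WT littermates from heterozygous parents. The comparisons address whether loss of LH1 alters the response of the aorta to Ang II. Values are FPKM, fragments per kilobase of gene scaled to the total of the library, a scale that allows for gene length, and the spread is that between separate mice.

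Glycolysis splits glucose into pyruvate in the cytosol and yields ATP without oxygen. Glucose enters through transporters such as GLUT1 (Slc2a1), is phosphorylated by hexokinases (Hk1, Hk2), is committed by phosphofructokinase (Pfkp is its platelet-type subunit, and Pfkfb3 makes the sugar phosphate that activates it), is split by aldolase (Aldoa), and is carried through phosphoglycerate kinase (Pgk1), phosphoglycerate mutase (Pgam1) and pyruvate kinase (Pkm). Lactate dehydrogenase (Ldha is its A subunit) turns pyruvate into lactate, and many of these genes are known to respond to low oxygen and to cell activation in the vessel wall.

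The FPKM values were scaled to between 24711653 and 29795007 fragments per library, as estimated from the spacing of the values. A member was carried by 879 fragments at least (Hk2) and by 86346 at most (Aldoa), so counting error was small beside the spread between mice. Plod1 lay between 22.8 and 29.7 FPKM in WT mice and at no more than 0.0415 in Plod1-/- mice. Xist, a transcript chosen after seeing the values, was at 15.1 FPKM in saline-treated Plod1-/- replicate 5 and at 7.93 in Ang II-treated Plod1-/- replicate 1 but at no more than 0.0328 in the other 18 libraries, which goes against the stated sex of those mice. Ang II-treated WT replicate 4 also stood apart, as it was the lowest of its group for 8 of the 10 members. Results are given with and without these libraries. All 5 smooth muscle markers were detected in every group, but the cell content differed. The summed FPKM of the 5 smooth muscle markers ran from 13533 to 19827 in saline-treated and from 5227 to 16287 in Ang II-treated WT mice, and from 14276 to 19981 in saline-treated and from 2194 to 16405 in Ang II-treated Plod1-/- mice. Of the Ang II-treated Plod1-/- mice, replicate 1 was at 16405, and the others lay between 2194 and 6004. Replicate 1 was also the lowest of its group for the summed macrophage (581 FPKM), neutrophil (154) and fibroblast (589) markers. The endothelial sum lay between 36.9 and 257 FPKM over all 20 mice. Immediate early genes summed to 285 to 1828 FPKM in saline-treated and 51.1 to 95.3 in Ang II-treated WT mice, and to 95 to 887 and 317 to 1029 in Plod1-/- mice. Red blood cell genes summed to 151 to 1443 and 185 to 666 FPKM in the same WT groups and to 60.02 to 1523 and 763 to 9716 in the Plod1-/- groups. In bulk tissue, fewer cells of a type and less RNA per cell cannot be told apart.

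The 10 genes fell into 2 ranges of expression. In saline-treated WT mice, the enzymes of the lower pathway led, with Aldoa at 237 ± 19.3 FPKM (SD, n = 5), Pkm at 184 ± 20.4, Ldha at 108 ± 17.6, Pgam1 at 95 ± 15.1 and Pgk1 at 64.8 ± 7.94. The genes of glucose entry and the phosphofructokinase step were lower, with Slc2a1 at 27.0 ± 5.20, Pfkp at 22.4 ± 1.31, Hk1 at 14.5 ± 1.53, Pfkfb3 at 12 ± 3.67 and Hk2 at 8.0 ± 1.83. Of these neighbours in the order, Ldha and Pgam1, and Slc2a1 and Pfkp, overlapped within their spread, as did Hk1 and Pfkfb3, and Pfkfb3 and Hk2. The first 5 genes stayed above the last 5 by their means in all 4 groups. Pkm (297 ± 54.5) and Aldoa (296 ± 51.6) were level in the Ang II-treated Plod1-/- mice, whereas Aldoa (748 ± 297) led Pkm (384 ± 103) in the Ang II-treated WT mice.

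**Figure D1:**
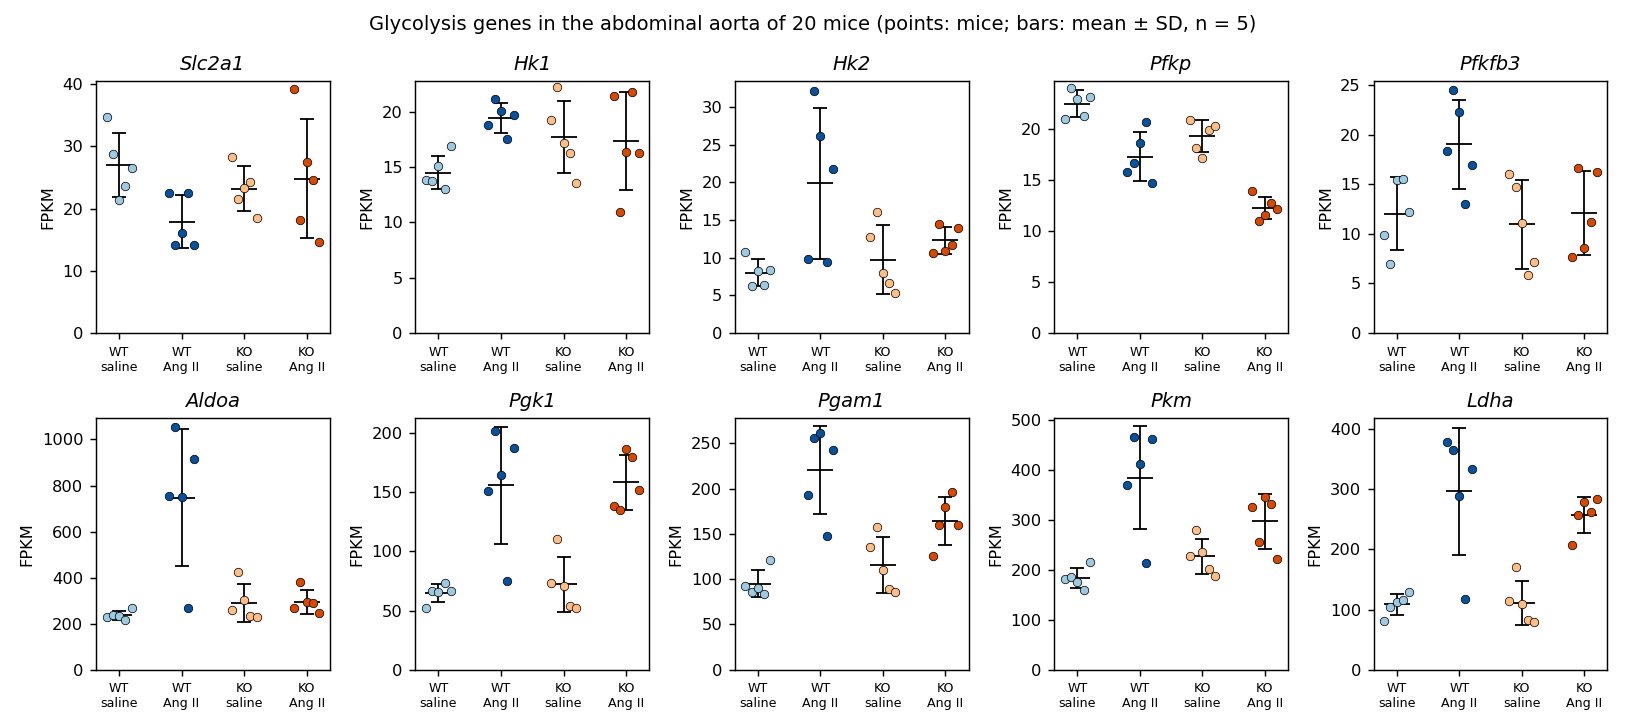
FPKM of the 10 glycolysis genes by mouse, 1 panel per gene, with axes from 0. Points are mice, and bars give the mean and SD of the 5 mice of each group (WT and Plod1-/-, each with saline or Ang II). Aldoa reached 1052 FPKM among WT mice given Ang II and stayed at or below 425 in the other groups.

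In WT mice, Ang II was accompanied by higher expression along most of the pathway. The largest increases were at aldolase and at lactate dehydrogenase, with a ratio of group means of 3.15 for Aldoa and 2.73 for Ldha, followed by Hk2 (2.48), Pgk1 (2.40), Pgam1 (2.32) and Pkm (2.09). The RNA of the glucose transporter Slc2a1 and of the platelet-type phosphofructokinase Pfkp fell. Of the 10 genes, 8 were higher and 2 lower under Ang II (limma, Benjamini-Hochberg adjusted p below 0.05 over all genes tested). Among all 11994 genes tested, 16.5% were called higher and 21.5% lower. With a log2 fold change above 1 in size as well, 6 of the 10 were differentially expressed genes (DEGs), against 8.66% of all genes. The median log2 fold change was 1.05 for the 10 genes and −0.14 for all genes. Fold changes are on the log2(FPKM + 1) scale, which understates changes where the FPKM is low.

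At glucose entry, Slc2a1 was at 34.8, 28.8, 21.3, 23.6 and 26.4 FPKM in the 5 saline-treated WT mice and at 22.5, 14.2, 16.0, 22.5 and 14.2 under Ang II. The groups overlapped only through the saline-treated mouse at 21.3, and the log2 fold change was −0.58 (SE 0.17, adjusted p = 0.0248). Hk1, the constitutive hexokinase, was at 13.8, 13.7, 15.1, 13 and 16.9 FPKM under saline and at 18.8, 21.2, 20.1, 17.5 and 19.6 under Ang II. Every Ang II-treated mouse exceeded every saline-treated mouse, with a log2 fold change of 0.40 (SE 0.10, adjusted p = 0.0121). Hk2, the inducible hexokinase, was at 10.7, 6.22, 8.24, 6.42 and 8.39 FPKM under saline and at 9.79, 32.1, 26.1, 9.47 and 21.8 under Ang II. Its increase of 1.08 (SE 0.32, adjusted p = 0.0227) came from 3 mice, while Ang II-treated replicates 1 and 4 lay within the range of the saline-treated mice. The summed skeletal muscle markers were at 285, 149 and 185 FPKM in those 3 mice (replicates 2, 3 and 5). The same sum was at 2.69 and 15.5 in replicates 1 and 4. The summed brown adipocyte markers were at 4715, 3065 and 3822 FPKM in replicates 2, 3 and 5 and at 2443 and 593 in replicates 1 and 4. The part of either set of markers in the result was not tested.

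At the phosphofructokinase step, Pfkp was at 20.9, 24.0, 22.9, 21.2 and 23.1 FPKM under saline and at 15.8, 16.6, 18.6, 20.6 and 14.6 under Ang II. The groups did not overlap, and the log2 fold change was −0.37 (SE 0.11, adjusted p = 0.0233). Pfkfb3 was at 9.90, 7.01, 15.5, 15.6 and 12.2 FPKM under saline and at 18.4, 24.5, 22.3, 13.1 and 17.0 under Ang II. Only Ang II-treated replicate 4 lay within the saline range, and the log2 fold change was 0.64 (SE 0.22, adjusted p = 0.0400). The calls of Slc2a1, Hk2, Pfkp and Pfkfb3 lay near the threshold. Leaving out 1 mouse ended the call for Slc2a1 (Ang II-treated replicates 2, 3 or 5 or saline-treated replicates 1 or 2, adjusted p from 0.0533 to 0.0659), for Hk2 (Ang II-treated 2, 3 or 5 or saline-treated 2 or 4, 0.0511 to 0.0575), for Pfkp (Ang II-treated 2 or 5 or saline-treated 2, 0.0553 to 0.0651) and for Pfkfb3 (Ang II-treated 1, 2, 3 or 5 or saline-treated 1, 2 or 5, 0.0594 to 0.10). The count of genes called fell from 10 to 6 without Ang II-treated replicate 2 or 5 or saline-treated replicate 2.

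In the lower pathway, Aldoa was at 227, 238, 234, 218 and 269 FPKM in saline-treated WT mice and at 754, 1052, 750, 267 and 916 under Ang II. Replicate 4 lay among the saline-treated mice and the other 4 were at least 750, which gave a log2 fold change of 1.52 (SE 0.31, adjusted p = 0.00532). Pgk1 was at 51.8, 66.7, 65.6, 73.5 and 66.4 FPKM under saline and at 151, 202, 164, 75.0 and 187 under Ang II. The groups just failed to meet, as replicate 4 at 75.0 lay above the highest saline-treated mouse at 73.5, and the log2 fold change was 1.18 (SE 0.24, adjusted p = 0.00495). Pgam1 was at 92.9, 86.0, 90.8, 84.0 and 121 FPKM under saline and at 193, 255, 262, 148 and 243 under Ang II. All Ang II-treated mice exceeded all saline-treated mice, and Pgam1 had the smallest adjusted p of the 10 genes (log2 fold change 1.19, SE 0.18, adjusted p = 0.00187).

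At the end of the pathway, Pkm was at 182, 186, 176, 160 and 216 FPKM in saline-treated WT mice and at 369, 466, 411, 214 and 462 under Ang II. Replicate 4 again lay within the saline range, and the log2 fold change was 1.01 (SE 0.21, adjusted p = 0.00515). Ldha was at 81.0, 104, 113, 116 and 128 FPKM under saline and at 378, 364, 288, 118 and 333 under Ang II. Except for replicate 4, each Ang II-treated mouse had more than any saline-treated mouse, and the log2 fold change was 1.35 (SE 0.29, adjusted p = 0.00655). Without replicate 4, 10 genes were still called and 6 were DEGs, with log2 fold changes of 1.85 for Aldoa, 1.65 for Ldha and 1.43 for Pgk1. The calls of Hk1, Aldoa, Pgk1, Pgam1, Pkm and Ldha held whichever of the 10 mice was left out. The groups did not overlap for Hk1, Pfkp, Pgk1 and Pgam1. The share of all genes without overlap was not counted, here or in the other comparisons, so this is not set against the background. By limma, 6039 of all 11994 genes tested had an unadjusted p below 0.05.

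Markers of other cell types moved with this response. All 4 brown adipocyte markers on the list (Ucp1, Cidea, Cox8b and Cox7a1) were detected, and their summed FPKM ran from 16.6 to 418 in saline-treated and from 593 to 4715 in Ang II-treated WT mice. Replicate 4, lowest for 8 glycolysis genes, was also the lowest of its group for these markers (593 FPKM) and the highest for smooth muscle (16287 FPKM). The sum of the 4 adipocyte markers ran from 12.6 to 116 under saline and from 254 to 1003 under Ang II, that of the 5 macrophage markers from 105 to 189 and from 187 to 1201, and that of the 5 skeletal muscle markers (aldolase A is also the aldolase of skeletal muscle) from 3.60 to 6.39 and from 2.69 to 285. Mitochondrially encoded genes took 8.37% to 14.6% of the FPKM sum under saline and 14.6% to 29.1% under Ang II. The part of these markers in the changes of the 10 genes was not tested.

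Other genes of the pathway, taken from lists by function, were called mostly higher as well, where 16.5% of all 11994 genes tested were higher and 21.5% lower. Of 13 tested genes among 20 other glycolytic enzymes and glucose transporters, 7 were higher and 2 lower under Ang II in WT mice (median log2 fold change 0.85). Pfkl, the liver-type phosphofructokinase, rose from 17.9 ± 4.94 to 90.0 ± 40.6 FPKM (n = 5 each, limma adjusted p = 0.00243), and Eno1, the ubiquitous enolase, from 91.3 ± 20.8 to 436 ± 197 (adjusted p = 0.00246). Eno2, the neuronal enolase, fell from 7.11 ± 0.651 to 3.56 ± 0.658 (limma adjusted p = 0.00181, n = 5 each). Thus Pfkl moved opposite to Pfkp at the same step. Of 14 genes of lactate export and pyruvate entry into mitochondria, 10 were higher and 3 lower, with a median of 1.24. They included Slc16a1 (the lactate carrier MCT1), with a log2 fold change of 1.98, Mpc2 (a subunit of the mitochondrial pyruvate carrier) with 1.86, and Dlat and Pdhb (subunits of pyruvate dehydrogenase) with 2.17 and 2.07. Of the regulators of the phosphofructokinase step and gluconeogenic enzymes, 4 of 7 tested were higher and 0 lower, with Pck1 at 4.42 and Fbp2 at 2.5. Of 7 pentose phosphate genes, 6 were higher and 0 lower, led by Tkt (transketolase) with 2.48. Hypoxia-inducible factors and their targets outside glycolysis were split, with 4 of 15 tested genes higher and 6 lower and a median of −0.36. Vegfa, the endothelial growth factor, rose by 2.11 on the log2 scale.

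In Plod1-/- mice, Ang II was accompanied by higher expression at 3 steps of the lower pathway. Pgk1 and Ldha rose about as far as in WT mice, with ratios of group means of 2.19 and 2.32, Pgam1 rose by a ratio of 1.42, and Pfkp fell by a ratio of 1.57. Aldoa had a log2 fold change of 0.06. Of the 10 genes, 3 were called higher and 1 lower, where 23.8% of all 12333 genes tested were higher and 20.1% lower, so the shares of the 10 genes lay near the background. DEGs were 2 of the 10, against 13.9% of all genes, and the median log2 fold change was 0.27, against 0.05 for all genes.

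Ldha was at 114, 170, 110, 82.4 and 79.7 FPKM in saline-treated and at 208, 257, 278, 262 and 283 in Ang II-treated Plod1-/- mice. No value of the groups overlapped, and the log2 fold change was 1.25 (SE 0.20, adjusted p = 0.000761). Pgk1 was at 73.4, 110, 71.0, 53.8 and 51.9 FPKM under saline and at 138, 135, 186, 180 and 151 under Ang II. Here too the groups stood apart, with a log2 fold change of 1.16 (SE 0.20, adjusted p = 0.00114). Pfkp was at 20.8, 18.1, 17.2, 19.9 and 20.3 FPKM under saline and at 13.8, 11.0, 11.5, 12.7 and 12.1 under Ang II. All 5 Ang II-treated mice were below all saline-treated mice, and the log2 fold change was −0.61 (SE 0.09, adjusted p = 0.000468). The calls of Ldha, Pgk1 and Pfkp held whichever of the 10 mice was left out, and their groups did not overlap.

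Pgam1 was at 135, 158, 110, 89.1 and 86.2 FPKM in saline-treated and at 126, 159, 180, 197 and 159 in Ang II-treated Plod1-/- mice. The groups overlapped, and the increase of 0.52 (SE 0.19, adjusted p = 0.0464) lost its call without any of Ang II-treated replicates 2 to 5 or saline-treated replicates 3 to 5 (adjusted p from 0.0701 to 0.111). Pkm was at 228, 280, 236, 202 and 188 FPKM under saline and at 326, 256, 346, 332 and 222 under Ang II. Its log2 fold change of 0.38 (SE 0.16, adjusted p = 0.0858) did not pass, though it did without Ang II-treated replicate 5 (adjusted p = 0.0322). Aldoa was at 258, 425, 301, 232 and 228 FPKM under saline and at 267, 382, 294, 289 and 247 under Ang II. The groups covered much the same range, and the 95% interval of the log2 fold change ran from −0.37 to 0.48 (adjusted p = 0.834).

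The genes of glucose entry did not pass in Plod1-/- mice. Slc2a1 was at 28.2, 21.6, 23.4, 24.3 and 18.5 FPKM under saline and at 39.2, 18.1, 27.5, 24.7 and 14.6 under Ang II, where replicate 1 was the highest and replicate 5 the lowest of all 10 mice. The log2 fold changes were 0.03 for Slc2a1 (95% interval −0.48 to 0.54), −0.05 for Hk1 (−0.46 to 0.37), 0.40 for Hk2 (−0.16 to 0.96) and 0.16 for Pfkfb3 (−0.50 to 0.82). Hk2 ranged from 5.25 to 16.0 FPKM under saline and from 10.6 to 14.5 under Ang II, so the Ang II-treated mice lay within the saline range. Without both libraries with Xist RNA, 4 genes were still called and 2 were DEGs, with log2 fold changes of 1.22 for Ldha, 1.11 for Pgk1, 0.52 for Pgam1 and −0.64 for Pfkp.

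Markers of inflammatory cells, fibroblasts and adipocytes moved with Ang II in Plod1-/- mice, as did those of smooth muscle. The macrophage sum ran from 49.8 to 197 FPKM under saline and from 581 to 3559 under Ang II, the sum of the 5 neutrophil markers (1 at a mean of at least 1 FPKM under saline and 4 under Ang II) from 1.26 to 2.93 and from 154 to 709, and the sum of the 4 proliferation markers was between 4.55 and 34 under Ang II and at most 3.01 in any other group. The fibroblast sum ran from 247 to 411 FPKM under saline and from 589 to 3530 under Ang II, without overlap, and the adipocyte sum from 36.2 to 385 and from 162 to 1616. Brown adipocyte markers ran from 22.6 to 1362 FPKM under saline and from 153 to 587 under Ang II. Among saline-treated Plod1-/- mice, replicate 2 was highest for 7 of the 10 glycolysis genes and also for the brown adipocyte markers (1362 FPKM), and replicate 5 was lowest for 8 genes and for those markers (22.6 FPKM). The part of these cell types in the result was not tested.

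The remaining genes of the pathway moved in both directions in Plod1-/- mice, where 23.8% of all 12333 genes tested were higher and 20.1% lower. Of 14 tested among the other glycolytic enzymes and glucose transporters, 4 were higher and 3 lower under Ang II, with a median of 0.23. Pfkm, the muscle-type phosphofructokinase, fell from 40.7 ± 5.39 to 19.5 ± 2.5 FPKM (n = 5 each, limma adjusted p = 0.000132), in the same direction as Pfkp. Hk3, a hexokinase of white blood cells, rose from 0.711 ± 0.578 to 9.74 ± 5.84 FPKM (n = 5 each, limma adjusted p = 0.00211). Among genes of lactate export and pyruvate entry, 2 of 14 were higher, namely Slc16a3 (the lactate carrier MCT4) with a log2 fold change of 1.30 and Slc16a1 with 1.75, and 2 were lower, with a median of −0.05. Of the phosphofructokinase regulators and gluconeogenic enzymes, 1 of 6 was higher (Pfkfb4, 0.85) and 2 were lower (Pck2, −0.49, and Tigar, −0.45). Of the pentose phosphate genes, 3 of 7 were higher and 0 lower, with Pgd at 1.31. Hypoxia-inducible factors and their other targets had 4 of 15 genes higher and 3 lower, with Hif1a, the oxygen-regulated subunit, at 1.17 and Epas1, its relative HIF-2 alpha, at −1.25.

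**Figure D2:**
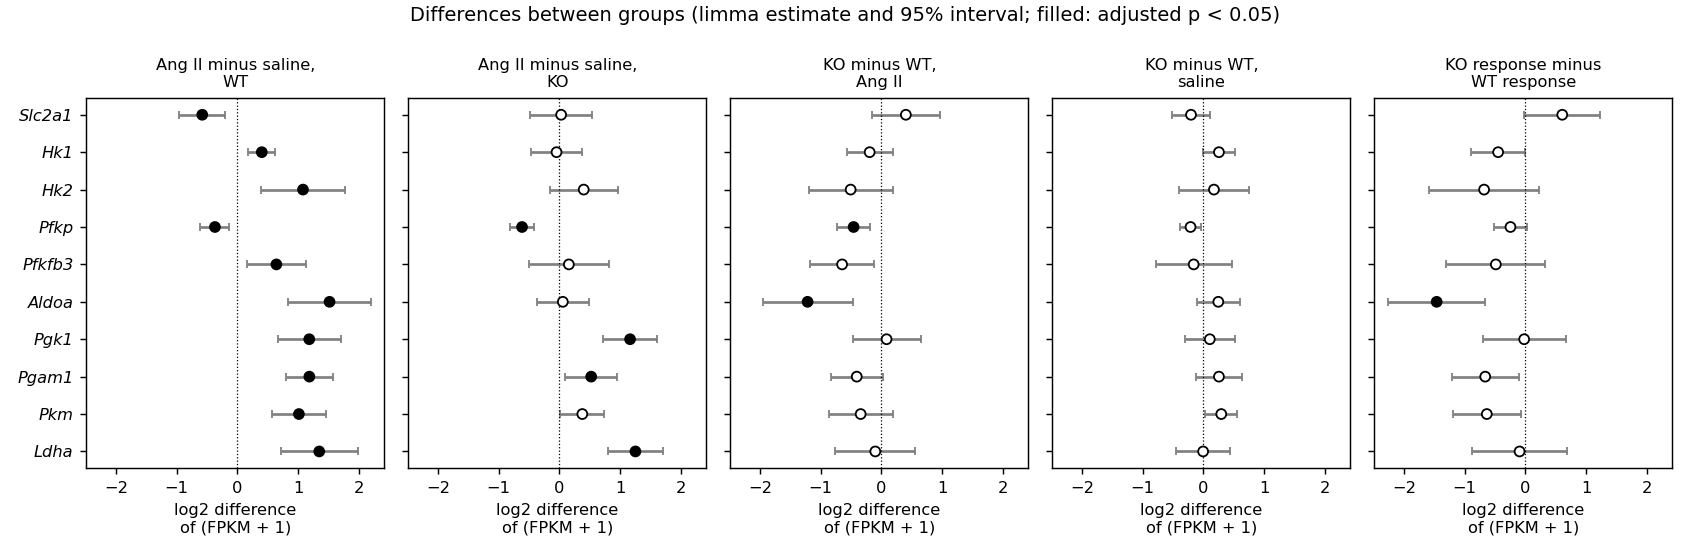
Differences of the 10 genes in log2(FPKM + 1) with 95% intervals, in 1 panel for each of the 4 comparisons and for the difference of the responses. Filled symbols have an adjusted p below 0.05. All 10 are filled for Ang II in WT mice, 4 for Ang II in Plod1-/- mice, 2 between the Ang II-treated genotypes, 0 between the saline-treated genotypes and 1, Aldoa, for the difference of the responses.

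The 4 genes called in the same direction in both genotypes were Ldha, Pgk1 and Pgam1, which were higher, and Pfkp, which was lower. Their promoters are shown because these genes were called in both genotypes, and they were chosen with the results known. Each line holds the 250 bases before an annotated transcription start, 5′ to 3′ on the strand of the gene, from RefSeq on GRCm38.p6. Capitals mark ACGTG and GCGTG on either strand (CACGT and CACGC on the strand shown), the core of the element that hypoxia-inducible factors are known to bind. The windows are chr7:46845554-46845803 (plus strand) for Ldha, at 1 of its 2 annotated starts, chrX:106186850-106187099 (plus strand) for Pgk1, chr19:41911621-41911870 (plus strand) for Pgam1 and chr13:6648772-6649021 (minus strand) for Pfkp.
Ldha: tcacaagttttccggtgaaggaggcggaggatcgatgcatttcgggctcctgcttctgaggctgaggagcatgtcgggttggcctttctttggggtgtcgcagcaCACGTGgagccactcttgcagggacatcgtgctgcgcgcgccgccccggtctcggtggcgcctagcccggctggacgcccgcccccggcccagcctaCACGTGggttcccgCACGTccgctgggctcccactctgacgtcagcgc
Pgk1: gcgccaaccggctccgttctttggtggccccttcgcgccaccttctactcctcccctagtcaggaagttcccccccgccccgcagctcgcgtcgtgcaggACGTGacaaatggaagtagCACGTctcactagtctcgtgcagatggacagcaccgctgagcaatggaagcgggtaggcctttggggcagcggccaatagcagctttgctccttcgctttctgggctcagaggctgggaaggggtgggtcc
Pgam1: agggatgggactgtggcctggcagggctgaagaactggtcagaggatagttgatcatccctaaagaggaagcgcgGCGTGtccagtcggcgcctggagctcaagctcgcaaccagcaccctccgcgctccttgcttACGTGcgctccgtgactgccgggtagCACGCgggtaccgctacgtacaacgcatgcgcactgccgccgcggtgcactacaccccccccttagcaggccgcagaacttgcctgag
Pfkp: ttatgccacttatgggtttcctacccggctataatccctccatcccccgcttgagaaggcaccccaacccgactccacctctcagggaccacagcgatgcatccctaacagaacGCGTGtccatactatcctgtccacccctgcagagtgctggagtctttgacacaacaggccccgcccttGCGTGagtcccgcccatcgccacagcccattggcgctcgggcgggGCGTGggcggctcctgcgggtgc

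The Ldha window held 5 matches to ACGTG, of which 2 pairs overlapped as CACGTG, at 145 and 144, at 48 and 47 and at 34 bases before the start. Pgk1 had 2 ACGTG matches, at 150 and 131 bases, and Pgam1 had 1 ACGTG match at 114 and 2 GCGTG matches at 175 and 88 bases. Pfkp, which fell, had 3 GCGTG matches at 136, 68 and 23 bases and 0 ACGTG matches. Over the 10 genes, 8 had ACGTG in at least 1 window, and the others were Pfkp and Hk1, which was higher in WT mice and had GCGTG alone. Slc2a1, which was lower in WT mice, had ACGTG at 36 bases. The other Ldha window had 1 GCGTG and 0 ACGTG matches. Whether the motif follows the direction of the calls was not tested. The 10 genes had 16 such windows in the RefSeq table. ACGTG was found in 62.5% of them and in 16.6% of all 32851 windows, and either core in 81.25% and 38.6%. These windows are not independent, as 2 of the 3 Aldoa windows overlap and share 1 match. The GC content of the windows of the 10 genes ran from 49.6% to 69.6%, and most lay above the median of all windows, 52.4%. The part of GC content in these shares was not tested, and a match describes these letters only.

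Between the Ang II-treated genotypes, aldolase and platelet-type phosphofructokinase were lower in Plod1-/- mice. Aldoa was lower by a ratio of group means of 2.53 and Pfkp by 1.41. Pgk1 and Ldha, which rose under Ang II in each genotype, were close in their means, at 158 ± 23.6 against 156 ± 49.3 FPKM and 258 ± 30.1 against 296 ± 106 (SD, n = 5 each). Of the 10 genes, 0 were called higher and 2 lower, against 20.8% and 10.4% of all 12356 genes tested. DEGs were 1 of the 10, against 11.1% of all genes. The median log2 difference was −0.37 for the 10 genes and 0.12 for all genes. This comparison shares its mice with both responses to Ang II, so it is no separate evidence for them.

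Aldoa lay between 247 and 382 FPKM in the Ang II-treated Plod1-/- mice and between 750 and 1052 in 4 of the 5 Ang II-treated WT mice, with the fifth, replicate 4, at 267. The groups therefore overlapped through that WT mouse, and the log2 difference was −1.21 (SE 0.34, adjusted p = 0.0211). The call was lost without WT replicate 2 (adjusted p = 0.0546), 3 (0.0526) or 5 (0.0537), and with no filter on low values (0.0646). Pfkp lay between 11.0 and 13.8 FPKM in Plod1-/- and between 14.6 and 20.6 in WT mice under Ang II, without overlap. Its log2 difference was −0.46 (SE 0.12, adjusted p = 0.0178), and the call was lost without WT replicate 3 (adjusted p = 0.0536) and with replicate number as a block (0.0623). Pfkfb3, at 7.71, 16.7, 8.56, 11.2 and 16.3 FPKM in Ang II-treated Plod1-/- mice, had a log2 difference of −0.65 that did not pass (adjusted p = 0.0595). It passed without WT replicate 4 or Plod1-/- replicate 2 or 5 (adjusted p from 0.0309 to 0.0444).

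The other members did not pass between the Ang II-treated genotypes. The 95% interval of the log2 difference ran from −0.47 to 0.64 for Pgk1 and from −0.76 to 0.56 for Ldha, which leaves room for differences in either direction. The differences were −0.41 for Pgam1, −0.34 for Pkm, −0.51 for Hk2, −0.19 for Hk1 and 0.40 for Slc2a1, with adjusted p from 0.136 to 0.414. With weights per mouse, 7 of the 10 genes were called, with Hk2 (−0.88), Pfkfb3 (−0.71), Pgam1 (−0.42) and Pkm (−0.49) lower in Plod1-/- mice beside Aldoa and Pfkp, and Slc2a1 (0.52) higher. Without WT replicate 4, 5 genes were called, all lower in Plod1-/- mice: Aldoa (−1.55), Pfkfb3 (−0.77), Pgam1 (−0.54), Pkm (−0.54) and Pfkp (−0.39). Without both libraries with Xist RNA, Aldoa (−1.18, adjusted p = 0.0303) and Pfkp (−0.50, adjusted p = 0.0121) were called. Under Ang II, the brown adipocyte sum was 593 to 4715 FPKM in WT and 153 to 587 in Plod1-/- mice, which did not overlap, the macrophage sum was 187 to 1201 and 581 to 3559, and the fibroblast sum of 4 markers was 269 to 534 and 589 to 3530. Their part in the differences was not tested.

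Among the other genes of the pathway, most calls between the Ang II-treated genotypes were lower in Plod1-/- mice. Of all 12356 genes tested, 20.8% were higher and 10.4% lower. Of 15 tested glycolytic enzymes and transporters, 3 were higher and 6 lower, with a median of −0.70. Ldhb, the B subunit of lactate dehydrogenase, was at 55.4 ± 21.4 FPKM in Plod1-/- and 237 ± 79.7 in WT mice (n = 5 each, limma adjusted p = 0.00209). Pfkl differed by −1.53 and Pfkm by −0.99 on the log2 scale, in the same direction as Pfkp. Of 14 genes of lactate export and pyruvate entry, 1 was higher, the lactate carrier Slc16a3 (1.65, adjusted p = 0.000585), and 7 were lower, among them Mpc1 (−1.13) and Mpc2 (−1.77), the subunits of the mitochondrial pyruvate carrier, and Pdk4 (−2.10), a kinase that inhibits pyruvate dehydrogenase. Of 7 phosphofructokinase regulators and gluconeogenic enzymes tested, 1 was higher (Pfkfb4, 1.15) and 3 were lower, with Fbp2 at −2.54. Of the pentose phosphate genes, 0 were higher and 1, Tkt (−1.97), was lower. Of 15 hypoxia-inducible factors and other targets, 2 were higher and 2 lower, with Hif1a at 1.57 and Epas1 at −1.38.

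**Figure D3:**
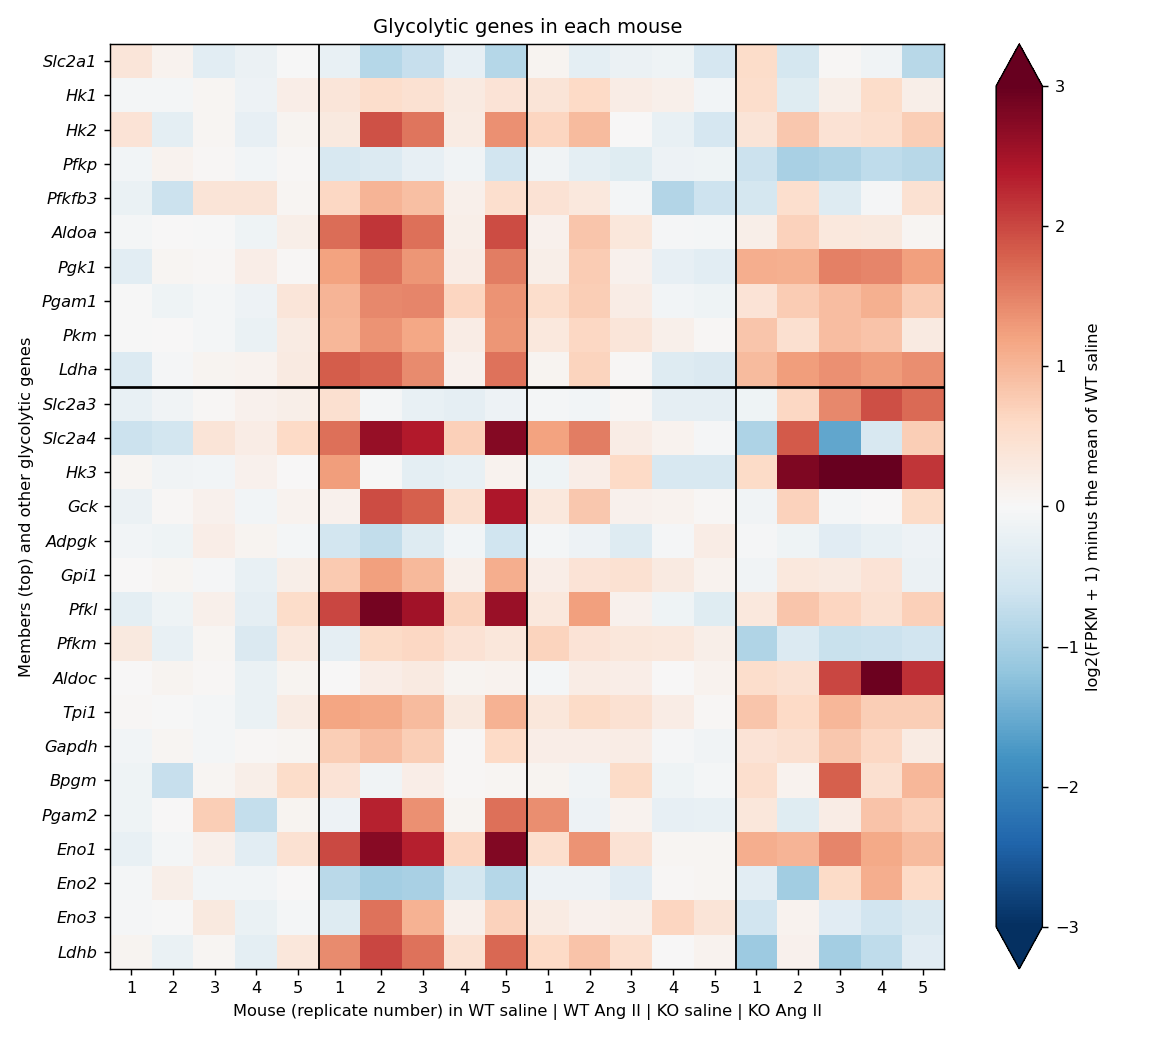
Heatmap of log2(FPKM + 1) minus the mean of the saline-treated WT mice, for the 10 genes and 17 other glycolytic genes whose highest value was at least 5 FPKM, with 1 column per mouse in the 4 groups. The colour scale runs from −3 to 3. Ang II-treated WT mice other than replicate 4 are raised along the lower pathway, and Ldhb is lowered in 4 of the 5 Ang II-treated Plod1-/- mice, with replicate 2 at 88.9 FPKM against a reference mean of 82.0.

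Under saline, none of the 10 genes was called between the genotypes. The numbers called were 0 higher and 0 lower by limma, where 3.33% of all 11999 genes tested were higher and 3.23% lower, and DEGs were 0 of the 10, against 0.767% of all genes. At an unadjusted p below 0.05 there were 2 of the 10 genes, Pfkp and Pkm, where 3251 of all 11999 genes tested had such a p, and limma's voom on recovered fragments called 0. Pfkp lay between 17.2 and 20.8 FPKM in Plod1-/- and between 20.9 and 24.0 in WT mice, so the groups did not overlap, with a log2 difference of −0.21 (SE 0.08, adjusted p = 0.105). Pkm lay between 188 and 280 FPKM in Plod1-/- and between 160 and 216 in WT mice, with a log2 difference of 0.29 (SE 0.12, adjusted p = 0.146). The differences of the other 8 genes lay between −0.20 and 0.26, and the median over the 10 genes was 0.14, where that of all genes was −0.01. Of the other glycolytic enzymes and transporters, 0 of 13 tested were called, and of the lactate export and pyruvate entry genes 0 of 14. Tigar, a phosphatase that lowers the activator of phosphofructokinase, was higher in Plod1-/- mice (0.59), as was Pgls (0.62) of the pentose phosphate pathway, and 0 hypoxia-inducible factors and targets were higher and 3 lower, namely P4ha1 (−1.05), Adm (−0.74) and P4ha2 (−0.36).

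Whether the genotypes differed in their response to Ang II was tested by an interaction term fitted over all 20 mice. Aldoa was the 1 gene of the 10 that was called, with a difference of −1.46 on the log2 scale (Plod1-/- response minus WT response, SE 0.38, 95% interval −2.26 to −0.66, adjusted p = 0.00682). Its mean went from 237 to 748 FPKM in WT mice and from 289 to 296 in Plod1-/- mice. The call held in each of the 20 fits that left out 1 mouse, with values from −1.80 to −1.30. Of all 13263 genes tested, 23.8% had a higher and 14.1% a lower response in Plod1-/- mice, while of the 10 genes 0 were higher and 1 lower, and 1 exceeded 1 in size, against 16.1% of all genes. The median over the 10 genes was −0.47, where that of all genes was 0.12.

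The responses of Pgk1 and Ldha differed by −0.02 (95% interval −0.70 to 0.66) and −0.10 (−0.87 to 0.68). Pgam1 (−0.66, adjusted p = 0.0553) and Pkm (−0.64, adjusted p = 0.0673) lay near the threshold. Without Ang II-treated WT replicate 4, both passed, at −0.80 and −0.83. Pgam1 also passed without saline-treated WT replicate 5, saline-treated Plod1-/- replicate 4 or 5 or Ang II-treated Plod1-/- replicate 4. Hk1 (−0.45) passed without Ang II-treated Plod1-/- replicate 1, and Slc2a1 (0.61) without Ang II-treated Plod1-/- replicate 5, which raised the number called from 1 to 2. Without both libraries with Xist RNA, the number called was 3, with Hk1 at −0.62 and Pkm at −0.74 beside Aldoa. Hk2 (−0.68), Pfkfb3 (−0.49) and Pfkp (−0.25) did not pass, though Hk2 passed with weights per mouse (−1.03, adjusted p = 0.0241) and Pfkp with limma's voom on recovered fragments (−0.44, adjusted p = 0.0422). Pfkp fell in both genotypes.

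**Figure D4:**
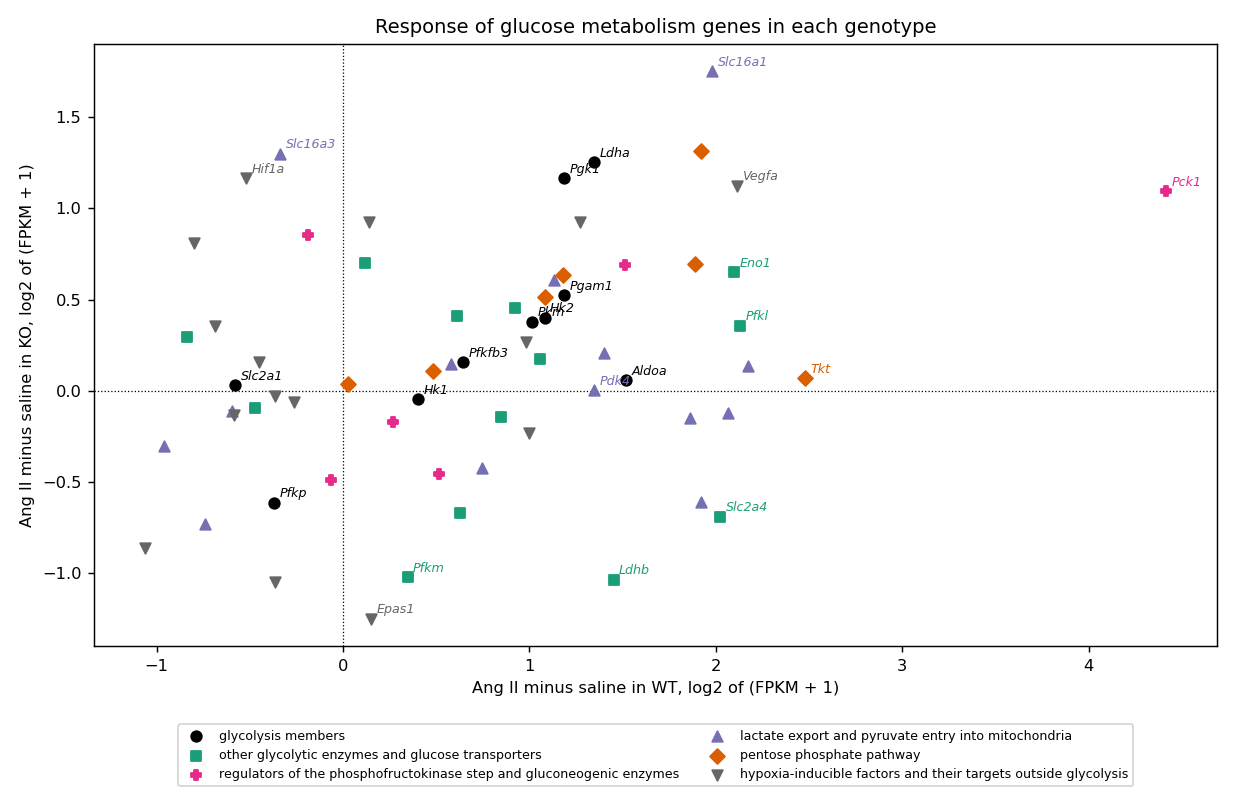
Response to Ang II in WT mice (horizontal axis) and in Plod1-/- mice (vertical axis), as log2 fold changes, for the 65 genes of glycolysis and its neighbouring pathways that were tested in both genotypes, with the 10 glycolysis genes named. Aldoa is at 1.52 and 0.06, while Ldha (1.35 and 1.25) and Pgk1 (1.18 and 1.16) are near the line of equal responses.

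Among the neighbouring genes, the interaction was called in both directions. Of all 13263 genes tested, 23.8% had a higher and 14.1% a lower response in Plod1-/- mice. Of 15 other glycolytic genes tested, 3 had a higher and 7 a lower response in Plod1-/- mice, with a median of −0.88, led by Ldhb (−2.49), Pfkm (−1.37) and Gpi1 (−0.99), the glucose phosphate isomerase. Of 14 genes of lactate export and pyruvate entry, 2 were higher, with Slc16a3 at 1.64 (adjusted p = 7.97e-05), and 5 lower, with Pdk2 at −2.53. Of 7 phosphofructokinase regulators and gluconeogenic enzymes, 1 was higher and 4 lower, and of the pentose phosphate genes 0 were higher and 2 lower, Tkt (−2.41) and Taldo1 (−1.20). Of 15 hypoxia-inducible factors and other targets, 4 were higher, with Hif1a at 1.68 and P4ha1 at 1.61, and 3 lower, with Epas1 at −1.40.

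The RNA of paired isozymes or transporters was compared within each library, as the log2 ratio of FPKM + 1 of the 2 genes. In bulk tissue, a shift of the ratio within cells and a change in the mix of cells cannot be told apart. Over 5 ratios and 4 comparisons, 4 of 20 exact permutation tests passed after Benjamini-Hochberg adjustment, each with the smallest p that 5 mice against 5 allow (two-sided, p = 0.00794, adjusted p = 0.0397). Of the ratios that passed, 2 were those of the subunits of lactate dehydrogenase. The A subunit favours the making of lactate from pyruvate and the B subunit the reverse. The ratio of Ldha to Ldhb was −0.11, 0.21, −0.08, 0.00399 and −0.14 in the saline-treated Plod1-/- mice and 2.45, 1.52, 2.78, 2.44 and 2.14 under Ang II. Every Ang II-treated mouse exceeded every saline-treated mouse, by a mean of 2.29, and the mean was 2.27 ± 0.47 under Ang II against −0.02 ± 0.14 (SD, n = 5 each).

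In WT mice, the ratio of Ldha to Ldhb was −0.08, 0.55, 0.41, 0.80 and 0.32 under saline and 0.78, 0.16, 0.18, 0.07 and 0.30 under Ang II. The groups overlapped, with a difference of −0.10 (exact permutation p = 0.563, adjusted p = 0.626). Under Ang II, the ratio was 1.97 higher in Plod1-/- than in WT mice, and no value overlapped (exact permutation adjusted p = 0.0397). Ldhb itself was at 85.8, 71.0, 84.4, 66.0 and 103 FPKM in saline-treated and 220, 327, 254, 112 and 270 in Ang II-treated WT mice. The Plod1-/- mice had 123, 147, 116, 82.1 and 87.6 FPKM under saline and 37.3, 88.9, 39.7, 47.3 and 63.7 under Ang II. Ldhb thus rose with Ldha in WT mice (log2 fold change 1.45) and fell in Plod1-/- mice (−1.04), with groups that did not overlap in WT mice. Without both libraries with Xist RNA, the differences in the ratio were 2.22 between the Plod1-/- groups and 1.92 between the Ang II-treated genotypes. Neither passed after adjustment over all ratio tests (exact permutation adjusted p = 0.0952 and 0.0529). Only the comparison of the Plod1-/- groups lost a mouse from both groups, which raises its smallest possible p.

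**Figure D5:**
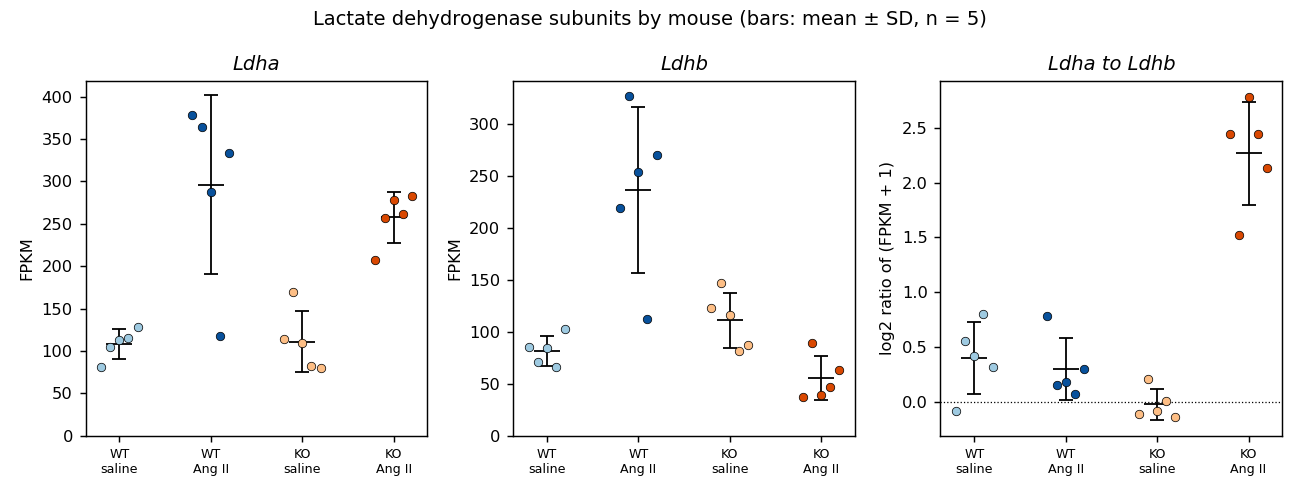
FPKM of Ldha and of Ldhb and the log2 ratio of Ldha to Ldhb by mouse, with the mean and SD of the 5 mice of each group. In the Ang II-treated Plod1-/- mice the ratio lies between 1.52 and 2.78, and in all other mice it lies at or below 0.80.

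The other 2 ratios that passed concerned transporters in WT mice. The ratio of Slc2a1 to Slc2a4, which encodes the insulin-responsive GLUT4 of fat and muscle, went from 0.90 ± 0.79 under saline to −1.70 ± 1.15 under Ang II (SD, n = 5 each, exact permutation adjusted p = 0.0397). Slc2a4 had a mean of 14.7 ± 5.73 FPKM under saline and 66.7 ± 31.6 under Ang II, whereas Slc2a1 fell from 27.0 to 17.9. The ratio of the lactate carriers Slc16a3 to Slc16a1 went from 1.08 ± 0.47 to −1.24 ± 0.90 (SD, n = 5 each, exact permutation adjusted p = 0.0397). In Plod1-/- mice these ratios differed by 0.72 (exact permutation p = 0.413) and −0.45 (exact permutation p = 0.476) and did not pass. The ratios of Hk2 to Hk1 and of Pfkp to Pfkm passed in 0 of 8 tests, with the smallest adjusted p at 0.0635 by the exact permutation test. Leaving out saline-treated WT replicate 2, 3, 4 or 5 left 0 of the 20 ratios passing (adjusted p of the 4 from 0.0635 to 0.0794). Without saline-treated WT replicate 1, both transporter ratios lost their call (0.0529). In that fit the ratios of Pfkp to Pfkm (−0.69) and of Ldha to Ldhb (−0.54) passed between the saline-treated genotypes (exact permutation adjusted p = 0.0397 each). Between the Ang II-treated genotypes, Slc16a3 to Slc16a1 (2.39) passed without Ang II-treated WT replicate 4 (exact permutation adjusted p = 0.0317). These are exact permutation tests adjusted over all 20, so the adjusted p of a ratio also depends on the other ratios. The Ldha to Ldhb tests that passed hold no saline-treated WT mouse. Without saline-treated WT replicate 2, 3, 4 or 5 they lost their call through the adjustment alone.

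The 10 genes lie on 9 chromosomes of GRCm38. Aldoa (ENSMUSG00000030695) is at chr7:126795234-126800751 and Ldha at chr7:46841475-46855627 on the same chromosome, Pgk1 at chrX:106187100-106203699, Pgam1 at chr19:41911923-41918660, Pkm at chr9:59656368-59679375 and Pfkp at chr13:6579768-6648777. Slc2a1 is at chr4:119108711-119137983, Hk1 at chr10:62268855-62379908, Hk2 at chr6:82725025-82774454 and Pfkfb3 at chr2:11471433-11554077. The libraries did not keep strand, and 6 of the 10 genes overlap a gene on the opposite strand, whose reads cannot be told apart. Pfkp, with a lowest value of 11.0 FPKM, overlaps Pitrm1, which reached 15.2, and Aldoa, with a lowest value of 218, overlaps Fam57b, which reached 13.3. Named copies elsewhere in the genome exist for 4 genes, and the one with the highest value was Pgam1-ps2 at 13.8 FPKM, where Pgam1 was at 84.0 or more.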

How the data were processed

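RNA of the abdominal aorta of 20 mice was sequenced by the authors from TruSeq V2 libraries, which do not keep strand. Groups and replicate numbers came from the sample labels. Per the submitters' notes, HISAT2 2.1.0, HTSeq 0.6.0, Bowtie2 2.2.3 and mm10 were used, while the methods name HISAT2, stringtie, cuffquant and cuffnorm. The values deposited by the authors are FPKM per Ensembl gene for each mouse. They behaved as whole fragments divided by exonic length and a scaling total (within 0.02 of a whole fragment), for 93.1% to 94.5% of genes under 100 fragments in each library. This gave the scaling total of each library and the fragments behind each value. No 2 libraries held identical values. GENCODE mouse release 21 (GRCm38) gave symbols and coordinates for 43226 of 43422 genes. Promoter windows came from RefSeq, and protein sequences were not used here.

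The tests were run in R 4.3.3 with jsonlite 2.0.0, limma 3.58.1 and data.table (version 1.17.8), and the plots made in Python 3.11.15 with numpy 2.4.6, pandas 2.3.3 and matplotlib 3.10.9. FPKM was transformed to log2(FPKM + 1). A comparison was fitted on the 10 mice of its 2 groups, for genes reaching 1 FPKM in at least 5 of the 10, with limma (eBayes with a variance trend) and adjusted by Benjamini-Hochberg over all genes tested. The interaction used all 20 mice. Genes with an adjusted p below 0.05 were called higher or lower, and those with a log2 fold change above 1 in size as well were counted as DEGs. All 10 members passed the filter in every comparison. Ratios were compared by exact permutation of the mice, two-sided. The method was tested on simulated data. The read-count test that the authors name was not run. The deposited unit is FPKM, and limma's voom on recovered fragments was run as an alternative setting.

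The members, the lists and the comparisons were chosen with earlier results of these data known. All 10 members are named in every comparison, with up to 4 genes of each other list that had the smallest adjusted p below 0.05, the genes of the ratios and the marker lists. Alternative settings were no filter on low values, a pseudocount of 0.1, a block on replicate number, weights for each mouse, no variance trend, quantile normalization, mitochondrial genes left out, all 4 groups in one fit, both libraries with Xist RNA left out, and each mouse left out. Limma's voom on recovered fragments was chosen after seeing the data.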

Additional observations from a re-analysis of the deposited data

Results flagged for a closer look

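Aldoa responded differently to Ang II in the genotypes by a test of the difference itself, with an interaction of −1.46 on the log2 scale (limma, Benjamini-Hochberg adjusted p = 0.00682). In Ang II-treated WT mice, 4 of 5 lay at or above 750 FPKM and 1 at 267, and all 5 Ang II-treated Plod1-/- mice lay between 247 and 382. The brown adipocyte sum also differed between these groups, at 593 to 4715 FPKM in WT and 153 to 587 in Plod1-/- mice. Its part in the result was not tested.

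Pgam1 in saline-treated WT replicate 5 stood far from the other mice of its group, at 121 FPKM against 84.0 to 92.9, a gap of 0.76 of the range of the group. It was the 1 such mouse among 40 groups of 5 values tested, where chance gives about 1 in 20.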

How the results depend on the processing

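Leaving out 1 mouse at a time, the number of the 10 genes called ran from 6 to 10 in WT mice (DEGs 4 to 6), from 3 to 4 in Plod1-/- mice (DEGs 2), from 0 to 5 between the Ang II-treated genotypes (DEGs 0 to 1) and from 1 to 3 for the interaction (DEGs 1), and 0 were called under saline throughout. The number of ratios passing ran from 0 to 5. Between the Ang II-treated genotypes the number called was 1 with no filter (DEGs 0, Aldoa lost), 1 with a replicate block and 7 with weights per mouse. For the interaction it was 2 with a replicate block, 5 with weights per mouse (DEGs 2), 2 after quantile normalization, 3 with mitochondrial genes left out, 3 with both libraries with Xist RNA left out and 4 with voom on recovered fragments. Without both libraries with Xist RNA, 0 ratios passed. Aldoa kept its interaction call in all of these.

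The changes that turned direction were small and uncalled. For Ang II in Plod1-/- mice, Slc2a1 was at −0.024 with weights per mouse, −0.089 after quantile normalization, −0.048 with mitochondrial genes left out, −0.23 without the libraries with Xist RNA and −0.00475 with voom, Hk1 at 0.086 with weights, and Aldoa at −0.092 after quantile normalization and −0.022 without mitochondrial genes. Between the Ang II-treated genotypes, Pgk1 was at −0.054 with weights, −0.019 without mitochondrial genes and −0.085 with voom. Under saline, Ldha was at 0.025, 0.00852, 0.10 and 0.015 after quantile normalization, without mitochondrial genes, without the libraries with Xist RNA and with voom, and the ratio of Hk2 to Hk1 at 0.0013 without those libraries. With each mouse left out, the ranges for Ang II in Plod1-/- mice were −0.15 to 0.19 for Slc2a1, −0.13 to 0.10 for Hk1, −0.025 to 0.31 for Pfkfb3 and −0.038 to 0.21 for Aldoa. They were −0.16 to 0.20 for Pgk1 and −0.40 to 0.016 for Ldha between the Ang II-treated genotypes, and −0.26 to 0.14 and −0.40 to 0.071 for their interaction. Under saline they were −0.018 to 0.34 for Hk2, −0.32 to 0.021 for Pfkfb3, −0.059 to 0.21 for Pgk1, −0.17 to 0.10 for Ldha, −0.19 to 0.035 for the ratio of Hk2 to Hk1 and −0.023 to 0.51 for that of Slc16a3 to Slc16a1. The cause was not tested.

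Replicate numbers did not pair the mice. Deviations of same-numbered mice correlated between −0.37 and 0.43, and not every mouse matched its own number best. The replicate block ended the calls of Pfkp (adjusted p = 0.0561) and Pfkfb3 (0.0782) in WT mice, Pgam1 (0.0901) in Plod1-/- mice and Pfkp (0.0623) between the Ang II-treated genotypes, added Slc2a1 (0.0406) to the interaction, and changed no other call of the 10 genes. In WT mice, Slc2a1 (0.0676), Hk2 (0.0691) and Pfkfb3 (0.105) lost their calls with no filter, and Pfkp with mitochondrial genes left out (0.0557) and voom (0.108). In Plod1-/- mice Pgam1 lost its call with no filter (0.107), quantile normalization (0.0783) and mitochondrial genes left out (0.0955).

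Over all genes, voom on recovered fragments called 2355 higher and 1673 lower in WT mice and 2647 higher and 2707 lower in Plod1-/- mice. The scale of all genes moved with the normalization. Of all calls, 43.5% were higher in WT mice and 58.5% with voom, 54.3% in Plod1-/- mice and 42.1% after quantile normalization, 66.7% between the Ang II-treated genotypes and 49.3%, 55.1% and 49.5% after quantile normalization, without mitochondrial genes and with voom, and 62.8% for the interaction and 49.2%, 52.7% and 46.6%. The all-gene median moved from −0.14 to −0.02 in WT mice (voom), from 0.05 to −0.06 in Plod1-/- mice (quantile normalization), from 0.12 to −0.03 between the Ang II-treated genotypes (quantile normalization) and from 0.12 to −0.04 for the interaction (voom). Each member was carried by at least 879 fragments, groups held 5 mice, and cell content differed between the groups.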
